A study of Mus musculus with 6 samples.

Results

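Eomes, T, Mixl1, Mesp1, Mesp2, Gsc, Lhx1, Evx1, Evx1os and Msgn1 are genes of the primitive streak, 9 of them encoding transcription factors and Evx1os giving a non-coding RNA antisense to Evx1. These 10 genes, of 25701 in the expression table, were taken by name and not by a rule on measured values, but with earlier results of these data known. The table holds polyA RNA-seq of cardiac progenitor (CP) cells derived from 46C, a mouse embryonic stem cell (ESC) line that carries a fluorescent reporter at Sox1. There were 3 libraries of the control genotype (46C-Ctrl) and 3 labelled Zhx1-KO, from 46C ESCs in which CRISPR/Cas9 was used to delete Zhx1, a gene for a zinc finger and homeobox protein. The number of ESC clones behind the Zhx1-KO label and the cultures behind each replicate number were not given in the sources used here, so p-values measure how these libraries vary, and that variation may be technical. Both groups went through the same differentiation, in which aggregates were exposed to human BMP4, activin A and VEGF before they were plated. The comparison asks which genes at the CP stage differ in level without Zhx1.

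The primitive streak is the site of the gastrulating embryo where epiblast cells leave the epithelium and become mesoderm and definitive endoderm. Nodal, Wnt3 and Bmp4 are the signals that induce it, and Eomes and T, both T-box factors, are among the first transcription factors to respond. Mesp1 marks the mesoderm that migrates out and contributes to the heart, and Eomes can activate it. In differentiating ESCs, the streak genes are thus usually read as a stage that precedes the CP stage. By qPCR at earlier stages, the study reported no effect of Zhx1 knockout on T (epiblast) or on Eomes, Mixl1 and Mesp1 (mesoderm). The libraries here are of the CP stage alone.

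Of the 10 genes, 9 had a promoter window in RefSeq (GRCm38.p6, 250 bases before to 50 bases after the annotated start), and 3 of these windows are shown up to 20 bases after the start. Eomes is shown because it had the highest level in 46C-Ctrl and a very low one in the libraries labelled Zhx1-KO, T because it encodes a factor of the same class with a much smaller fall, and Mesp1 because it held matches to more of the searched motifs than any other of the 9. Capitals mark matches on either strand to the motifs searched, which in Eomes are the CCAAT box, in T the Tcf/Lef letters and the CCAAT box, and in Mesp1 the Tcf/Lef and the T-box letters (its CCAAT box lies past the bases shown).
Eomes (chr9:118477939-118478208, + strand): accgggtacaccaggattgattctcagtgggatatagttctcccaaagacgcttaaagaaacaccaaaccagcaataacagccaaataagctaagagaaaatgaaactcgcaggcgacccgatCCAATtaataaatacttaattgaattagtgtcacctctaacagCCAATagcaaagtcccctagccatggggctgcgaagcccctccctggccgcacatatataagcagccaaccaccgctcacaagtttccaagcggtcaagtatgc
T (chr17:8434173-8434442, + strand): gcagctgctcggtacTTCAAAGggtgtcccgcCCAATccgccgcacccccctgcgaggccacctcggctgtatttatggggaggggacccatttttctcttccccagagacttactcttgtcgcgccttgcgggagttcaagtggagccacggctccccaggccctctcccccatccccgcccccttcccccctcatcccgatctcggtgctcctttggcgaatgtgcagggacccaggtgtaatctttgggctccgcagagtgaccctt
Mesp1 (chr7:79793571-79793840, − strand): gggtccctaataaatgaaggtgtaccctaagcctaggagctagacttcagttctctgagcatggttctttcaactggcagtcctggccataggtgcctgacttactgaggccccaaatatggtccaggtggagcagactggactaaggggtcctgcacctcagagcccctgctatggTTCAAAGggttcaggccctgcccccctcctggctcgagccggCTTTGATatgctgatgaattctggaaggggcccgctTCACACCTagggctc

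The T-box letters AGGTGTGA were in 1.27% of 32817 promoter windows of the same length and in 1 of the 9 here, that of Mesp1, at bases 6 to 13 counted from the RefSeq start. For Mesp1, Gsc, Msgn1 and Lhx1, that start lies inside the gene body of the GENCODE annotation, from which the gene positions below are taken. The Tcf/Lef letters CTTTGAT were in 3.73% of all windows and in those of Mesp1 and Msgn1, and CTTTGAA were in 5.14% and in those of Mesp1, Msgn1 and T. Of the Foxh1 letters, AATCCACA were in 0.856% of all windows and in that of Mesp2, while AATACACA (0.981%) and the Smad letters GTCTAGAC (0.213%) had no match in the 9. The CCAAT box, the site of NF-Y, was in 37.4% of all windows and in 5 of the 9, those of Eomes, T, Mesp1, Lhx1 and Evx1os. Gsc and Evx1 held none of these letters in this window. No match overlapped another. The G and C content of the 9 windows ran from 47.3% (Eomes) to 65.7% (Lhx1), against a median of 52.7% over all windows. A match is a run of letters and not evidence that a factor binds there.

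Values are normalized counts, gene counts divided by 1 factor per library. The depth of the libraries, as the sum of their values in steps (the unit of which every value in a library is a whole multiple), ran from 13769967 to 15940874. The label CP was compared with its markers, and all 6 of them were found in every 46C-Ctrl library, with means from 62.2 (Tbx5) to 5774 (Hand1), against 1.93 (Tbx5) to 327 (Nkx2-5) in those labelled Zhx1-KO. Of the 6, Isl1 had 209 ± 31.6 and 179 ± 34.2 (SD, n = 3 each), its libraries overlapped, and it did not pass (adjusted p = 0.311, limma). Markers of pluripotent cells had 46C-Ctrl means of 3524 (Pou5f1), 610 (Nanog), 589 (Sox2), 17.5 (Esrrb) and 9.41 (Zfp42). The CP markers alone thus do not show how far these cells had passed earlier stages. Zhx1 itself (chromosome 15, 58047003 to 58076541) had 460, 181 and 457 normalized counts in 46C-Ctrl replicates 1, 2 and 3 and 225, 325 and 308 in those labelled Zhx1-KO. Its adjusted p was 0.579 (limma) and its exact permutation p over libraries was 0.6 (two-sided), so the transcript does not check the labels. 46C-Ctrl replicate 2 stood apart from the other libraries of its group, with a chi-square per gene of 17.3 and 18.7 against them, compared with 5.88 between replicates 1 and 3, and with 2.77% of its counts from mitochondrial genes against 1.72% to 1.87% in the other 5 libraries. Without it, Eomes had a log2 fold change of -7.38, Lhx1 of -4.62, Mesp1 of -4.13, T of -0.57 and Gsc of -0.59. The 8 genes called with it were also lower without it, and the mean of Mesp2 fell under the filter. Zhx1 was lower without that library, with a log2 fold change of -0.70 (adjusted p = 0.0113, limma).

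Compared with 46C-Ctrl, 8 of the 10 streak genes had a lower level in libraries labelled Zhx1-KO (limma, adjusted p under 0.05), 0 were higher, Mesp2 did not pass, and Msgn1, with a mean under 10, was not tested. Over all 15372 genes tested, 26.4% were lower and 25.6% were higher. Of the 10, 6 were called lower with a fall of at least 2-fold, as were 7.85% of all genes tested. Every library labelled Zhx1-KO was below every 46C-Ctrl library for all 10 genes, as it was for 30.4% of all genes tested. The median log2 fold change of the 9 tested was -4.52, and that of all genes tested was 0.00876. Mixl1, Mesp1, Mesp2 and Evx1os, 4 of the 9, had a mean under 10 in the libraries labelled Zhx1-KO and were tested only because of their level in 46C-Ctrl, so a difference in those genes was built into the filter. Markers of other cell types differed between the same libraries. Of the early neural list, 11 of 14 tested genes were higher and 2 lower, with a summed level of 4385 to 5304 normalized counts in 46C-Ctrl and 6298 to 6722 in those labelled Zhx1-KO, and Pax6 was at 0 in every 46C-Ctrl library. Of these 11, Pax6, Lmx1a, Rax, Hesx1 and Six3, 5 genes, had a mean under 10 in 46C-Ctrl and were tested only because of their level in the other group, and the same holds in reverse for Zic1 among the lower ones. Of the epiblast and pluripotency list, 9 of 12 tested genes were lower and 2 higher, with a summed level of 11216 to 12443 and of 6525 to 6651, and of the 9 lower ones Dppa5a was tested only because of its level in 46C-Ctrl. Their part in the fall of the streak genes was not tested. In bulk libraries, fewer cells that express a gene and less RNA of it per cell cannot be told apart.

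**Figure D1:**
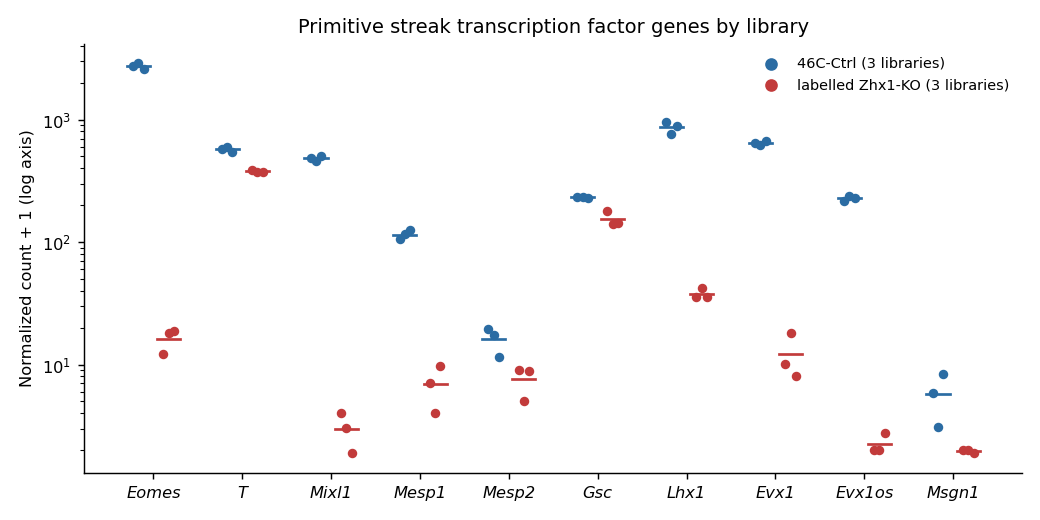
Normalized counts plus 1 (log axis) of the 10 primitive streak genes in each library, with 1 point per library and a horizontal line at the mean of each group of 3. The groups do not overlap for any of the 10 genes, and the distance between them is wide for Eomes (2736 against 15.3) and narrow for T (571 against 377) and Gsc (231 against 154).

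Eomes (chromosome 9, 118478212 to 118486132, + strand of GRCm38) encodes the T-box factor that is needed for mesoderm and endoderm to leave the streak. It had 2742, 2869 and 2596 normalized counts in 46C-Ctrl replicates 1, 2 and 3 and 11.1, 17.2 and 17.6 in those labelled Zhx1-KO. The control libraries lay within a narrow band (2736 ± 136, SD, n = 3), and all 3 libraries labelled Zhx1-KO were at a very low level (15.3 ± 3.65, SD, n = 3), which made the mean 179-fold lower. Its log2 fold change was -7.42 (standard error, SE, 0.18, 95% interval -7.83 to -7.01, limma adjusted p = 2.4e-07). T (chromosome 17, 8434423 to 8442496, + strand), also called brachyury, is the T-box gene by which the streak and the notochord are usually recognized. T had 575, 594 and 544 normalized counts in 46C-Ctrl and 387, 372 and 373 in those labelled Zhx1-KO. The groups were separate but close, with means of 571 ± 25.3 and 377 ± 8.30 (SD, n = 3 each), a 1.51-fold difference. The log2 fold change of T was -0.60 (SE 0.07, 95% interval -0.76 to -0.43, limma adjusted p = 0.000324). Per kilobase of exon, Eomes was at 2.66 to 2.69 times the level of T in the 46C-Ctrl libraries, and T was at 38.1 to 62.7 times the level of Eomes in those labelled Zhx1-KO. The exact two-sided permutation p of this ratio was 0.1, the smallest that 3 libraries against 3 allow.

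Among the homeobox genes, Mixl1 fell the furthest. Mixl1 (chromosome 1, 180693043 to 180697034, − strand) encodes a paired-like homeobox factor that is expressed in the streak and takes part in forming mesoderm and endoderm. It had 483, 456 and 507 normalized counts in 46C-Ctrl and 3.02, 2.02 and 0.880 in those labelled Zhx1-KO. The low values are 3, 2 and 1 times the step of their library. Where a step is taken as 1 count, the ratio of the summed values, 250, has a 95% exact interval from counting error alone of 115 to 683. Its log2 fold change was -7.41 (SE 0.32, limma adjusted p = 2.2e-06). Lhx1 (chromosome 11, 84518284 to 84525535, − strand) encodes a LIM homeobox factor of the anterior streak, the node and lateral mesoderm. Lhx1 had 954, 755 and 886 normalized counts in 46C-Ctrl and 34.3, 41.5 and 34.3 in those labelled Zhx1-KO. Both groups had a coefficient of variation near 11% (11.7% and 11.3%), and the mean fell from 865 ± 101.2 to 36.7 ± 4.14 (SD, n = 3 each), with a log2 fold change of -4.52 (SE 0.14, limma adjusted p = 6.1e-07). Chromosome 11, on which Lhx1 lies, had a median log2 fold change of 0.42, with 57.0% of its 1185 tested genes higher and 9.62% lower. On the other chromosomes that carry these genes the median ran from -0.13 (chromosome 6) to 0.0234 (chromosome 7).

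Gsc (chromosome 12, 104471209 to 104473330, − strand) encodes goosecoid, the homeobox repressor of the anterior streak and organizer. Its values were 231, 233 and 228 in 46C-Ctrl and 177, 141 and 143 in those labelled Zhx1-KO. The control libraries were nearly equal (231 ± 2.61, SD, n = 3), and replicate 1 labelled Zhx1-KO was above the other two of its group (154 ± 20.7, SD, n = 3). The log2 fold change of Gsc was -0.59 (SE 0.13, 95% interval -0.88 to -0.30, limma adjusted p = 0.00532), a 1.502-fold difference of the means. T and Gsc were thus the 2 called genes of the 10 whose fall was under 2-fold.

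Evx1 (chromosome 6, 52313498 to 52318378, + strand) encodes an even-skipped homeobox factor of the posterior streak. Evx1 had 637, 618 and 668 normalized counts in 46C-Ctrl and 9.07, 17.2 and 7.04 in those labelled Zhx1-KO. Its mean fell 57.7-fold, from 641 ± 24.99 to 11.1 ± 5.37 (SD, n = 3 each), with a log2 fold change of -5.82 (SE 0.29, limma adjusted p = 4.6e-06). Evx1os (chromosome 6, 52308389 to 52314832, − strand) starts inside Evx1 and is read in the opposite direction. Evx1os had 215, 238 and 227 normalized counts in 46C-Ctrl and 1.01, 1.01 and 1.76 in those labelled Zhx1-KO. The latter are 1, 1 and 2 steps, and the ratio of the summed values was 176 (95% exact interval from counting error, with a step as 1 count, 68.5 to 649). Its log2 fold change was -6.67 (SE 0.29, limma adjusted p = 2.5e-06). The gene bodies of Evx1 and Evx1os overlap over 1335 bases, and their exons over 73 bases, which is 2.54% of the exon length of Evx1 and 2.42% of that of Evx1os. The study used the strand of the library in mapping and in its FPKM values, but whether the counts of this table, another quantity, used it was not given, so reads from the shared bases cannot be assigned with certainty. Per kilobase of exon, the ratio of Evx1 to Evx1os was 2.72 to 3.11 in 46C-Ctrl and 4.19 to 17.8 in those labelled Zhx1-KO, where it rests on so few steps of Evx1os that no change of the ratio is read from it.

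Mesp1 and Mesp2 are neighbouring basic helix-loop-helix genes on chromosome 7 whose starts lie 16939 bases apart and point away from each other. Mesp1 (79792241 to 79793788, − strand) marks early cardiac and other migrating mesoderm. It had 104, 115 and 123 normalized counts in 46C-Ctrl and 6.05, 3.03 and 8.80 in those labelled Zhx1-KO. The mean fell 19.2-fold, from 114 ± 9.54 to 5.96 ± 2.88 (SD, n = 3 each), with a log2 fold change of -4.14 (SE 0.37, limma adjusted p = 6.99e-05). Mesp2 (79810727 to 79813439, + strand) acts later, in the segmentation of somites. Mesp2 was low throughout, with 18.5, 16.6 and 10.5 normalized counts in 46C-Ctrl and 8.06, 4.04 and 7.92 in those labelled Zhx1-KO. The groups did not overlap, but the log2 fold change of -1.09 (95% interval -2.16 to -0.03) had an adjusted p of 0.0794 in limma and did not pass. Per kilobase of exon, Mesp1 was at 8.59 to 17.8 times the level of Mesp2 in 46C-Ctrl and at 1.14 to 1.69 times in those labelled Zhx1-KO (exact two-sided permutation test, p = 0.1, the smallest possible). In the libraries labelled Zhx1-KO the ratio rests on 6, 3 and 10 steps of Mesp1 and 8, 4 and 9 of Mesp2, so its size is imprecise. These paralogs share a conserved helix-loop-helix region, and how reads that match both were counted was not given. Msgn1 (chromosome 12, 11208360 to 11208972, − strand), a related helix-loop-helix gene of presomitic mesoderm, was barely detected, with 4.88, 2.07 and 7.38 normalized counts in 46C-Ctrl and 1.01, 1.01 and 0.880 in those labelled Zhx1-KO. These are 5, 2 and 7 steps against 1, 1 and 1, a ratio of the summed values of 4.95 (95% exact interval from counting error, with a step as 1 count, 1.38 to 26.9).

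**Figure D2:**
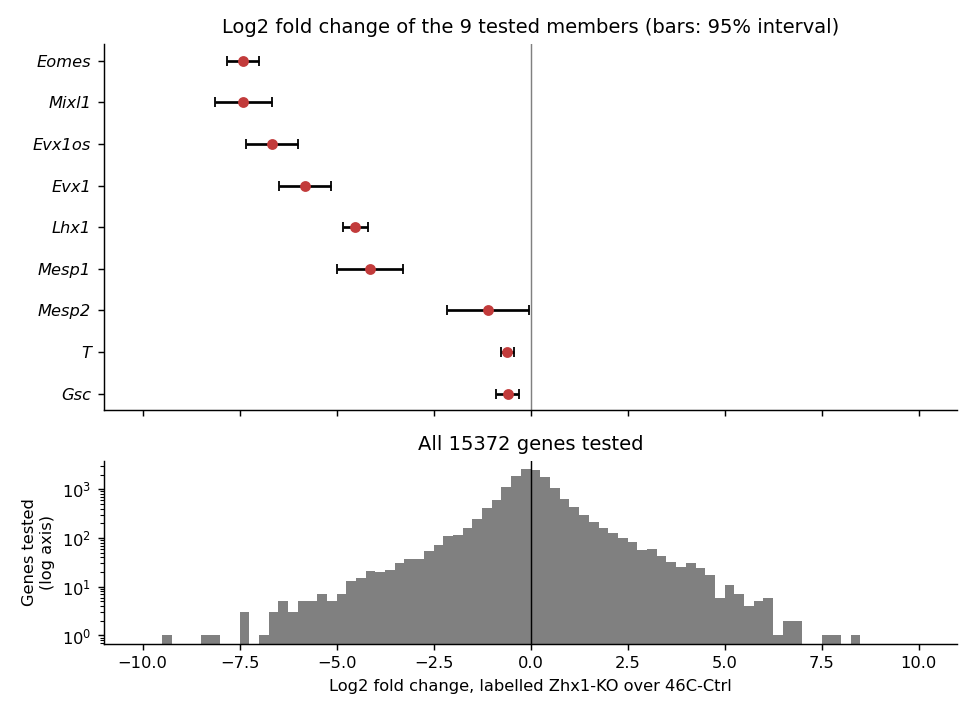
Upper panel, log2 fold change of the 9 tested primitive streak genes (labelled Zhx1-KO over 46C-Ctrl) with the 95% interval from limma. Lower panel, the number of genes at each log2 fold change among all 15372 tested (log axis). Eomes and Mixl1 lie near -7.4, in the far left tail of all genes, while T (-0.60) and Gsc (-0.59) lie beside the main mass of genes around 0.

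Ordered from the largest fall on the log2(value + 1) scale over the 15372 genes tested, Eomes was number 5, Mixl1 number 6, Evx1os number 9, Evx1 number 21, Lhx1 number 58 and Mesp1 number 80. Mesp2 was number 1234, T number 2599 and Gsc number 2609. The order of Eomes and Mixl1 depends on the pseudocount, since with 0.5 in place of 1 their log2 fold changes were -7.46 and -7.71. So does that of Evx1os and Evx1, whose log2 fold changes with a pseudocount of 5 were -5.21 and -5.38. The 95% intervals of the first 6 in this order did not overlap those of T and Gsc, as the plot of fold changes shows. Spread between replicates was small for the well expressed genes, with a coefficient of variation in 46C-Ctrl from 1.13% (Gsc) to 11.7% (Lhx1) outside Mesp2 (27.3%) and Msgn1 (55.6%).

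Levels were compared between genes per kilobase of exon. In 46C-Ctrl, Eomes was the most abundant of the 10 (658 ± 32.8 normalized counts per kb, SD, n = 3), followed by T (247 ± 10.9). Evx1 (223 ± 8.69), Lhx1 (212 ± 24.9) and Mixl1 (210 ± 11.3) came next, and neighbours in this order among those 3 overlapped between libraries. Gsc (182 ± 2.06), Mesp1 (89.6 ± 7.48) and Evx1os (75.1 ± 3.90) were each separate from the next, and Mesp2 (7.83 ± 2.14) and Msgn1 (7.79 ± 4.33) overlapped at the bottom. Among the libraries labelled Zhx1-KO, the order was led by T (163 ± 3.58) and Gsc (121 ± 16.3), well above Lhx1 (9.01 ± 1.02). Mesp1 (4.68 ± 2.26), Evx1 (3.86 ± 1.87), Eomes (3.68 ± 0.878) and Mesp2 (3.43 ± 1.17) overlapped there, and Msgn1 (1.58 ± 0.122), Mixl1 (0.861 ± 0.467) and Evx1os (0.418 ± 0.144) were lowest.

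**Figure D3:**
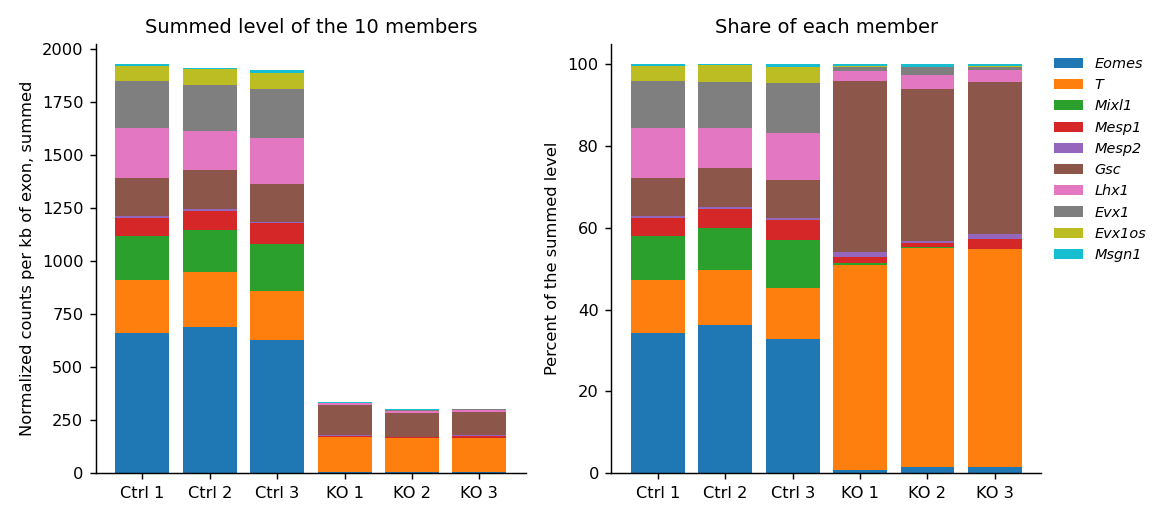
Stacked bars of the 10 primitive streak genes per library, as the summed normalized counts per kb of exon (left) and as percent of that sum (right). Ctrl stands for 46C-Ctrl and KO for the libraries labelled Zhx1-KO. The sum is 1900 to 1927 in 46C-Ctrl and 299 to 333 in the others, where T and Gsc make up most of it.

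The summed level of the 10 genes was 1912 ± 13.9 per kb in 46C-Ctrl and 312 ± 18.99 in those labelled Zhx1-KO (SD, n = 3 each). Eomes made up 32.9% to 36.1% of this sum in 46C-Ctrl and 0.8001% to 1.40% in those labelled Zhx1-KO. The share of T was 12.4% to 13.4% and then 50.1% to 53.7%, and that of Gsc 9.46% to 9.62% and then 37.0% to 41.9%. T and Gsc thus made up most of the remaining level, although both had fallen.

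The nearest tested gene on each side of the 10 genes was listed to show whether their surroundings moved with them. These were 16 genes that are not themselves among the 10, of which 6 were lower and 1 higher, while 9 did not pass, against 26.4% lower and 25.6% higher over all genes tested. Hoxa13 among the 6 was tested only because of its level in 46C-Ctrl. The 16 genes had a median log2 fold change of -0.24. With the nearest 2 on each side, 8 of 32 were lower and 8 higher, with a median of -0.00553. In reverse, a gene among these 8 higher was tested only because of its level in those labelled Zhx1-KO. Golga4, a Golgi gene 20135 bases from Eomes, had 1478 ± 82.0 normalized counts in 46C-Ctrl and 1524 ± 106 in those labelled Zhx1-KO (SD, n = 3 each), and Cmc1, 328035 bases away on the other side, had 111 ± 21.7 and 125 ± 12.9. Neither passed the test, and their log2 fold changes had 95% intervals of -0.12 to 0.21 (Golga4) and -0.25 to 0.62 (Cmc1), against -7.83 to -7.01 for Eomes. Lin9, 2349 bases from Mixl1, had 205 ± 14.9 and 192 ± 40.7 and did not pass, and Acbd3, on its other side, fell by 0.39 on the log2 scale (adjusted p = 0.00433, limma). Beside Lhx1, Aatf had 638 ± 103 and 693 ± 15.8, and Lhx1os, a non-coding RNA 125 bases from Lhx1, had 12.6 ± 1.03 and 7.74 ± 5.10 (SD, n = 3 each), neither of which passed. Wdr93, 6291 bases from Mesp1, rose from 12.4 ± 5.94 to 46.3 ± 4.37 (adjusted p = 0.00408, limma), and Anpep, 8364 bases from Mesp2, had 221 ± 60.0 and 159 ± 10.5 and did not pass. Without 46C-Ctrl replicate 2, Anpep was lower, with a log2 fold change of -0.68 in place of -0.44 (adjusted p = 0.00407, limma).

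Around Evx1 and Evx1os, Hoxa13, the terminal HoxA cluster gene 47509 bases from Evx1os, had 22.4, 21.7 and 28.5 normalized counts in 46C-Ctrl and was listed at 0 in all 3 libraries labelled Zhx1-KO (adjusted p = 0.000272, limma). Hoxa13 was tested only because of its level in 46C-Ctrl, so a difference in it was built into the filter. Hibadh, on the other side of Evx1, had 609 ± 6.66 and 672 ± 19.3 (SD, n = 3 each) and did not pass, except with quantile normalization (adjusted p = 0.0233, limma). Pde10a, a phosphodiesterase gene 82876 bases from T, had 254, 284 and 262 normalized counts in 46C-Ctrl and 16.1, 0 and 67.8 in those labelled Zhx1-KO. It was lower (adjusted p = 0.0191, limma), more variable between libraries than T, and did not pass without a mean trend (adjusted p = 0.0545, limma). Prr18, on the other side of T, had 20.1 ± 5.89 and 17.7 ± 7.60 (SD, n = 3 each) and did not pass. For Gsc, Ppp4r4 fell from 297 ± 46.8 to 56.2 ± 8.40 (adjusted p = 2.84e-05, limma) at a distance of 857378 bases, and Dicer1 had 3267 ± 265 and 3185 ± 14.2 and did not pass. Kcns3 and Gen1, beside Msgn1, were lower with adjusted p-values of 0.0406 and 0.044 (limma), and under limma without a mean trend these were 0.0686 and 0.0663, and with the replicate number as a block 0.0584 and 0.0736. Kcns3 also did not pass without any 1 of the 46C-Ctrl replicates or without replicate 1 or 3 labelled Zhx1-KO (adjusted p up to 0.112, limma), and Gen1 without 46C-Ctrl replicate 2 or 3 or any 1 of the libraries labelled Zhx1-KO (adjusted p up to 0.135, limma).

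**Figure D4:**
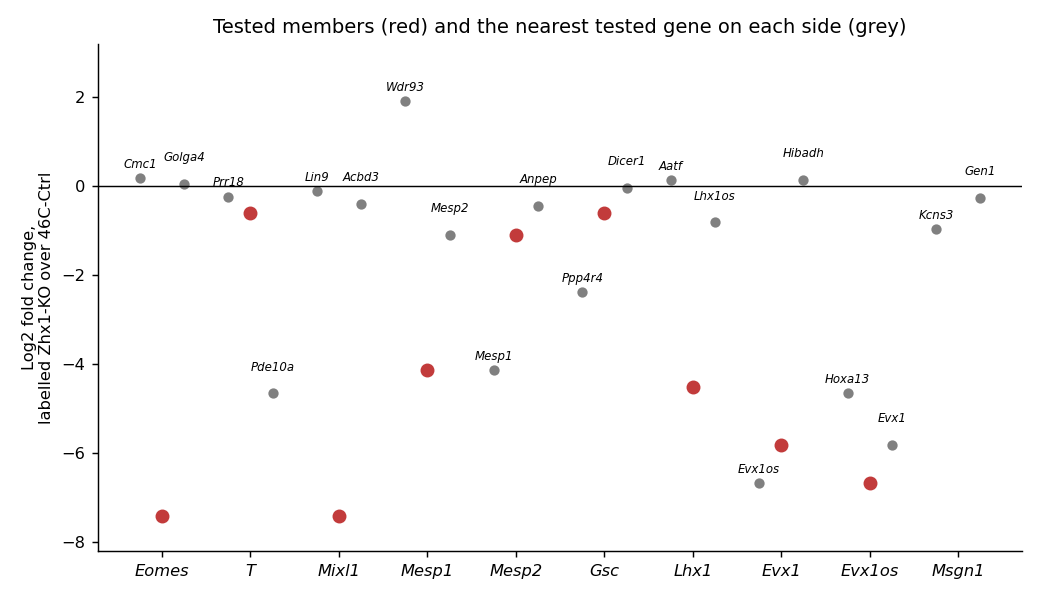
Log2 fold change (labelled Zhx1-KO over 46C-Ctrl) of each tested primitive streak gene (red) and of the nearest tested gene on its left and right along the chromosome (grey, named). Members of the 10 that neighbour each other appear again in grey. Eomes, Mixl1 and Lhx1 lie far below both of their neighbours, whereas Pde10a and Ppp4r4 lie below T and Gsc.

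A list of 17 genes, called upstream signals, held the signals that induce the streak with their antagonists, transducers and nuclear factors. All of these genes were tested, of which 11 were lower and 2 higher, while 4 did not pass (median log2 fold change -1.95). Gdf3 and Lefty1 among the 11 were tested only because of their level in 46C-Ctrl. Nodal, the ligand that acts upstream of Eomes and Mixl1, fell from 958 ± 57.1 to 29.4 ± 2.83 normalized counts, and Foxh1, the factor by which Smad2 and Smad3 reach Nodal targets, from 2258 ± 118 to 429 ± 7.43 (SD, n = 3 each; adjusted p = 2.76e-07 for both, limma). Wnt3, upstream of T, fell from 681 ± 45.2 to 34.2 ± 1.86, and Bmp4 from 1316 ± 126 to 300.2 ± 24.3 (SD, n = 3 each). The Nodal antagonists Lefty1 and Lefty2, which are also Nodal targets, fell from 124 ± 2.30 to 7.10 ± 0.965 and from 68.5 ± 3.19 to 15.0 ± 3.40 (SD, n = 3 each). Gdf1, a partner ligand of Nodal, rose from 19.1 ± 6.95 to 86.1 ± 9.35, and Smad2 from 912 ± 70.8 to 1266 ± 19.9 (SD, n = 3 each). Smad3 had 1686 ± 61.6 and 1686 ± 40.0 and did not pass. Nodal, Wnt3 and Bmp4 were lower in the same libraries as Eomes, Mixl1 and Mesp1, and the RNA of Smad2, a transducer of the Nodal signal, was higher. RNA levels do not measure the activity of a pathway. From gene set enrichment analysis and western blots, the study reported that Zhx1 knockout leaves the Wnt pathway and that of Smad2 and Smad3 unaffected. Its main text says only that no exact link of Zhx1 to these pathways was established. The part of these signals in the fall of the streak genes was not tested.

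Genes that act with or after the streak factors were counted in 3 lists. Of 16 tested genes of nascent mesoderm (20 listed), 10 were lower and 3 higher, with a median log2 fold change of -0.86. Cdx2, a posterior homeobox gene that is a target of Wnt signals, fell from 343 ± 42.0 to 17.6 ± 1.29, and Nkx1-2 from 511 ± 54.9 to 27.3 ± 5.09, whereas Tbx6, a T-box gene that acts after T, had 18.5 ± 7.76 and 10.7 ± 4.48 (SD, n = 3 each) and did not pass. Of 15 tested genes of the anterior streak and endoderm (16 listed), 10 were lower and 3 higher (median -0.61). Gata6 fell from 861 ± 58.1 to 175 ± 15.5 and Foxa1 from 1076 ± 19.01 to 537 ± 11.5 (SD, n = 3 each). Among definitive endoderm markers, Sox17 fell from 438 ± 43.0 to 142 ± 32.3 (SD, n = 3 each). Cer1 fell from 145 ± 9.56 to 63.9 ± 14.3 and Hhex from 377 ± 34.2 to 261 ± 32.0 (SD, n = 3 each). Foxa2, another of them, which shares the anterior streak with Gsc, had 717 ± 41.9 and 661 ± 24.7 and did not pass. Shh rose from 359 ± 33.4 to 1233 ± 17.8 (SD, n = 3 each). Of 16 tested genes of cardiac mesoderm, the tissue downstream of Mesp1, 12 were lower and 3 higher (median -1.41), and Tbx5 among the 12, like Fgf17 among the 10 of nascent mesoderm, was tested only because of its level in 46C-Ctrl. Hand1 fell from 5774 ± 329 to 198 ± 28.1, and Kdr, a receptor gene of lateral mesoderm, rose from 631 ± 20.9 to 2079 ± 112 (SD, n = 3 each). Pdgfra rose with it, from 948 ± 60.1 to 1231 ± 91.1 (SD, n = 3 each).

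**Figure D5:**
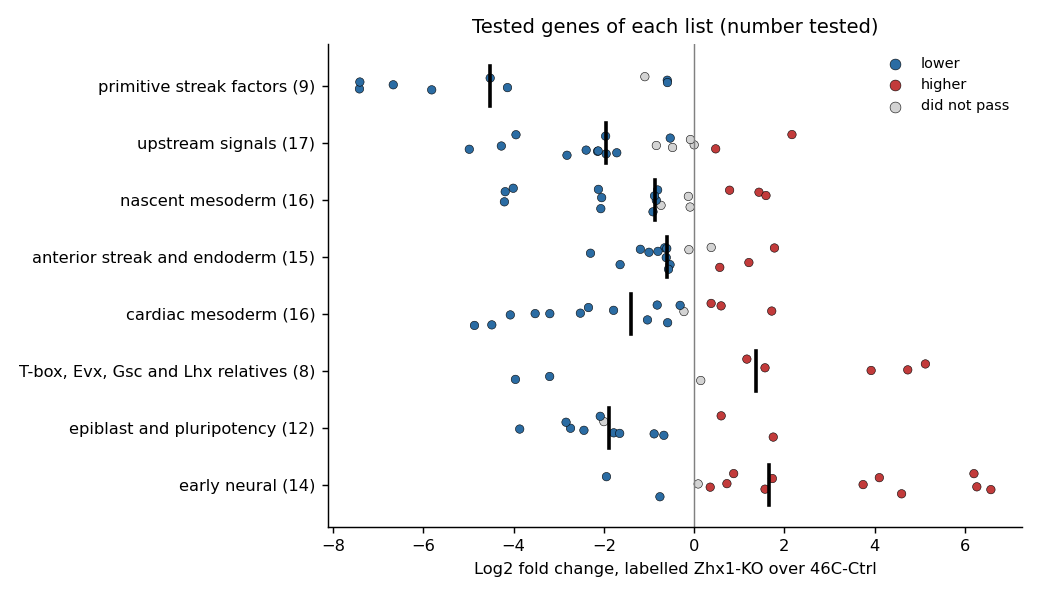
Log2 fold change (labelled Zhx1-KO over 46C-Ctrl) of the tested genes of each list, with 1 point per gene, coloured by whether limma called it, and a vertical bar at the median of the list. The primitive streak genes have a median of -4.52, the upstream signals of -1.95 and the cardiac mesoderm genes of -1.41, while the early neural genes lie to the right of 0 with a median of 1.65.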

How the data were processed

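RNA-seq was measured in 6 libraries of CP cells, 3 of 46C-Ctrl and 3 labelled Zhx1-KO, grouped by genotype. According to the study's methods, trimming used cutadapt 1.18 and mapping used HISAT2 2.1.0 on GRCm38. The submitters' processing notes also name StringTie 1.3.4d, Cufflinks and DESeq2, and the counting program is not known here. The deposited values are a signal per gene, namely counts after division by 1 factor per library by the authors. All values are whole multiples of a step per library (0.880 to 1.05, within 0.01), and the sums in steps, 13769967 to 15940874, set the precision. The steps of 2 libraries lie so close to 1 that whole reads could not be taken as recovered under the rule set for it, and a count test was not made. Counting intervals, which take a step as 1 count, are conditional on that.

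Of 25701 genes, 15372 had a mean of 10 or more and were tested on log2(value + 1) with limma 3.58.1 (R 4.3.3). The model held a mean trend and the group alone, and p-values were adjusted by Benjamini and Hochberg over the 15372. The threshold for a call was an adjusted p of 0.05, and fold changes on this scale understate those of low genes. Exact two-sided permutation tests used the log2 values of the 6 libraries. Intervals of ratios of summed values cover counting error only (exact binomial, 95%). Positions and exon lengths are from a GENCODE annotation of GRCm38 later than the release the study used, promoter windows from RefSeq (GRCm38.p6).

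The members and lists were chosen with earlier results of these data known. Named genes are Zhx1, the 10 streak genes, the nearest tested gene on each side of each, and in each list up to 4 genes with the smallest adjusted p in each direction and genes the study measured by qPCR. Smad3, Lefty1, Lefty2, Tbx6, Foxa2, Sox17, Cer1, Hhex, Nanog, Esrrb, Zfp42, Mga, Ncam1, Pax6, Lmx1a, Hesx1, Gdf3, Fgf17, Dppa5a, Myocd, Wnt8a, Tbx22 and Lhx4 were added after their values were seen. The limma fit was run on simulated data drawn with limma's own moderated variances, which cannot test its variance model. Recovery of changed genes was judged there on well expressed genes only. Alternatives covered the pseudocount, filter, normalization, variance model, a fold condition, the replicate number as a block and each library left out, 16 in all, and for neighbours the nearest 2 genes.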

Additional observations from a re-analysis of the deposited data

How the results depend on the processing

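Of the 10 streak genes, 8 were lower at each of the alternatives tried except 3. With quantile normalization and with limma without a mean trend 9 were lower, since Mesp2 then passed (adjusted p = 0.0339 and 0.0361), and requiring in addition a 2-fold change left 6, without T and Gsc. That requirement left 1207 genes lower and 1493 higher of all genes tested. Leaving out 1 library at a time gave 3460 to 3873 genes lower and 3185 to 3787 higher, and 8 streak genes lower each time. With no filter, or a mean of at least 1, Msgn1 could be tested and did not pass (adjusted p = 0.0879 and 0.0819). The adjusted p of T ran from 0.000246 to 0.00258 and that of Gsc from 0.00338 to 0.0208. With the nearest 2 neighbours on each side, 8 of 32 genes were lower and 8 higher. The log2 fold change of Zhx1 ran from -0.70 to -0.0278 when 1 library was left out, and only without 46C-Ctrl replicate 2 did it pass. Of the calls on single list genes and neighbours, 75 of the values under alternatives no longer passed, 5 newly passed, 1691 kept their direction and side of the threshold and 11 changed sign, the latter all for genes that did not pass. These were Smad3 (-0.00880 with the TMM-like rescaling), Dicer1 (0.0664 with quantile normalization), and, with 1 library left out, Smad3 (range -0.0280 to 0.0242), Dicer1 (-0.0781 to 0.0313), Aatf (-0.00786 to 0.218), Golga4 (-0.00279 to 0.0970), Ncam1 (-0.0201 to 0.207) and Prr18 (-0.52 to 0.10). The cause was not tested. Whether the replicate numbers pair the libraries was not given. Deviations of same-numbered libraries from their group means had correlations of 0.00419, -0.0690 and 0.000587, which show no shared signal but cannot settle whether libraries were paired. With the replicate number as a block, 8 streak genes were lower, and over all genes 3749 were lower and 3625 higher. The calls of Kcns3, Gen1, Myocd and Wnt8a were then lost (adjusted p = 0.0584, 0.0736, 0.0576 and 0.0650, limma). Depth limits Mixl1, Evx1os and Msgn1, whose values in the libraries labelled Zhx1-KO are 1 to 3 steps each. It also limits Mesp1 and Mesp2, at 3 to 10 and 4 to 9 steps in those libraries.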

Other observations

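Relatives of the streak factors differed in direction among themselves. Of 20 genes of the T-box, Evx, Gsc and Lhx families outside the 10 streak genes, 8 were tested, of which 2 were lower, 5 higher and 1 did not pass. The list does not hold the T-box genes placed in other lists, of which Tbx5 and Tbx20 were lower and Tbx6 did not pass. With no filter, or a mean of at least 1, 4 genes of the list were lower, and with a mean of at least 50 only 3 were higher. Tbx18 and Lhx5 were tested only because of their level in the libraries labelled Zhx1-KO. Tbx3, a T-box repressor, fell from 1394 ± 109 to 88.9 ± 11.5 normalized counts, and Tbx2, its close relative, from 479 ± 36.5 to 51.4 ± 7.06 (SD, n = 3 each). Lhx5, a LIM homeobox gene related to Lhx1 and known from the early forebrain, rose from 7.496 ± 3.21 to 280.1 ± 11.5, and Lhx2, a LIM homeobox gene of the eye field and forebrain, from 26.7 ± 5.58 to 80.7 ± 9.70 (SD, n = 3 each). Tbx18 rose from 1.05 ± 1.05 to 28.0 ± 8.97, and Mga, a T-box gene that is broadly expressed, had 2435 ± 192 and 2691 ± 131 (SD, n = 3 each) and did not pass, but was higher without 46C-Ctrl replicate 2 and with quantile normalization (adjusted p = 0.0208 and 0.02004, limma). Tbx22 was at 0 in every 46C-Ctrl library and Lhx4 in every library labelled Zhx1-KO, at levels too low to test.

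The epiblast, from which the streak forms, and the early neural plate, the other main fate of the epiblast, were described by further lists. Pou5f1 fell from 3524 ± 31.1 to 1024 ± 41.4 and Fgf5, an epiblast growth factor, from 1149 ± 127 to 209.7 ± 9.47, while Sox2, which is shared by pluripotent and neural cells, rose from 589 ± 25.7 to 1985 ± 12.0 (SD, n = 3 each). Dnmt3b fell from 3221 ± 522 to 2006 ± 108 (SD, n = 3 each). Six3, a forebrain homeobox gene, rose from 7.51 ± 1.74 to 617 ± 8.53, Sox1, the gene of the reporter in 46C, from 17.03 ± 1.77 to 240.4 ± 20.9, and Rax from 5.15 ± 1.93 to 101.4 ± 14.2, whereas Zic1 fell from 20.04 ± 1.41 to 4.998 ± 2.95 and Nes from 2804 ± 278 to 1652 ± 93.7 (SD, n = 3 each).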
